A study of Mus musculus with 8 samples.

Results

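The subject is a set of 300 stretches of the mouse genome in which clustered H3K27ac peaks of blood stem cells cover the most base pairs. H3K27ac is the histone acetylation found at active promoters and enhancers. In the WT H3K27ac peak list, peaks separated by at most 12500 bp were joined into domains, the base pairs covered by peaks were summed in each domain, and the 300 domains with the largest sums were kept of 31548. The members were thus chosen by WT H3K27ac covered length. The RXRKO against WT difference in H3K27ac uses the same library, so it is given as a description with no test.

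Enhancers are DNA stretches that raise the transcription of genes, often from a distance, when transcription factors bind them. Where many active enhancers lie close together the cluster is often called a super-enhancer, and such clusters are known for lying near genes that define a cell's identity. H3K4me1 marks enhancers and the flanks of promoters, whether active or not, and H3K4me3 marks mainly promoters. The retinoid X receptors RXRA and RXRB are nuclear receptors that bind DNA as partners of the retinoic acid, thyroid hormone, vitamin D, fatty acid (PPAR) and oxysterol (LXR) receptors.

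CUT&RUN was the assay: an antibody brings a nuclease to marked nucleosomes, and the DNA cut free there is read. It was done on haematopoietic stem cells (HSCs) from C57BL/6 mice about 10 months old, sorted from bone marrow as Lin-cKit+Sca1+CD48-CD150+, with 7500 cells per assay from a pool of 4 or 5 mice. RXRKO cells came from mice with Vav-Cre, which acts in blood cells, and with deleted Rxra and Rxrb. WT cells came from control mice. The sample labels give the WT mice Vav-Cre as well, while the study's design text names Cre only for RXRKO. If the design text holds, the deletion and Cre cannot be told apart. There were 2 RXRKO and 2 WT libraries for H3K4me1, and 1 RXRKO and 1 WT library each for H3K4me3 and for H3K27ac. The sources do not say that replicates came from separate pools, so p-values measure the spread between libraries only.

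The peak lists held 44.6 Mb of H3K27ac in RXRKO and 47.1 Mb in WT, 53.8 Mb of H3K4me3 in RXRKO and 45.5 Mb in WT, and 109.8 and 133.3 Mb of H3K4me1 in RXRKO against 112.5 and 117.8 Mb in WT. Read depth is unknown, because the lists hold no read totals, and a shallower library calls fewer and shorter peaks. Peak lists of histone marks do not show the deletion itself. Of 12 HSC marker genes, all 12 had an H3K4me3 peak within 1 kb of a start in RXRKO and in WT, against 1 of 7 granulocyte or monocyte and 2 of 8 lymphocyte markers in either genotype. H3K27ac lay at 8 of the 12 HSC markers in RXRKO and 10 in WT, at 2 of the 7 granulocyte or monocyte markers in RXRKO and 3 in WT, and at 1 of the 8 lymphocyte markers in RXRKO and 3 in WT. H3K4me1 separated the types less, at 10 and 11 of the HSC markers in RXRKO and 11 and 12 in WT, and in every library at 4 granulocyte or monocyte and 6 lymphocyte markers. Of the erythroid or megakaryocyte markers, 4 of 6 had H3K4me3 in RXRKO and 5 of 6 in WT, and 4 of 6 had H3K27ac in both. Stromal or endothelial markers had H3K4me3 at 6 of 7 genes and H3K27ac at 5 of 7 in both genotypes. H3K27ac was therefore not particular to HSC markers. The part of stromal or endothelial cells in the results below was not tested.

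The 300 domains spanned 30.8 to 301 kb (median 78.1 kb) and held 6 to 54 WT peaks each (median 15), 4805 in all. Their covered sums ran from 4894 to 24092 bp in RXRKO with a median of 9023 bp, and from 8186 to 27738 bp in WT with a median of 9832 bp. In WT they held 6.85% of all base pairs in the WT H3K27ac list. No break in the sums marked the border. By WT length, the last domains inside were those of Ptpre (8203 bp), of Ttc28 (8187 bp) and of Gse1 (8186 bp), and the first outside were those of Tns1 and Cxcr2 (8179 bp), of Opa3 and Vasp (8174 bp) and one near Anxa3 (8170 bp). The name "super-enhancer like" thus rests on a rank, and part of the covered length lay at promoters: 3773 of the 4805 peaks were more than 2.5 kb from a gene start and held 74.0% of the covered base pairs.

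**Figure D1:**
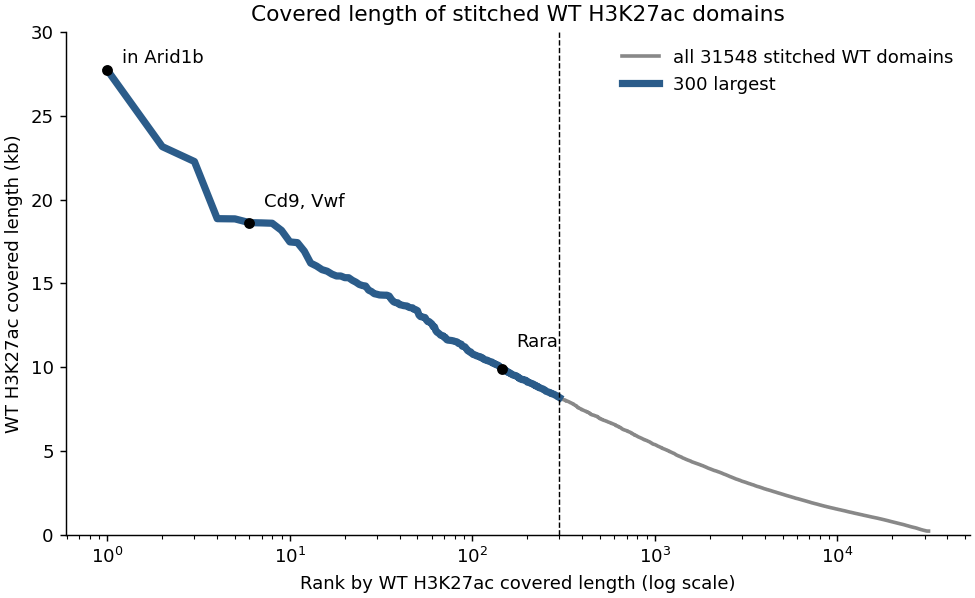
Base pairs covered by WT H3K27ac peaks (kb) in each of the 31548 stitched domains against rank on a log scale, with the 300 largest in blue and the dashed line at rank 300. The curve passes the border without a step, from 27738 bp at the domain overlapping Arid1b to 8186 bp at rank 300.

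The sequences shown first belong to genes that the text returns to. The members held 39 of the 1005 miRNA hairpins in the RefSeq table (GRCm38.p6, the mm10 build), in 32 domains. The mature miRNAs below were taken from the best known families among them, after the values had been seen, with the seed (bases 2 to 8, the part that pairs with target mRNAs) in capitals.
mmu-miR-126a-3p: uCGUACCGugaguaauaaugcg
mmu-miR-132-3p: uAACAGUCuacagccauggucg
mmu-miR-212-3p: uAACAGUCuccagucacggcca
mmu-miR-195a-5p: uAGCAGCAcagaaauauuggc
mmu-miR-497a-5p: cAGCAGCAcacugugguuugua
mmu-miR-21a-5p: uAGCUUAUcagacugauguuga
mmu-miR-148b-3p: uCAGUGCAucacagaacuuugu
miR-132-3p and miR-212-3p share the seed AACAGUC and lie in 1 domain with Hic1. miR-195a-5p and miR-497a-5p share the seed AGCAGCA and also lie in 1 domain.

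miR-126, which is known to hold HSCs in quiescence by damping PI3K and AKT signalling, is processed from an intron of Egfl7. Its hairpin (chr2:26591357-26591429, plus strand) lay in the domain of Notch1 and Egfl7 at rank 27, which covered 14614 bp of H3K27ac in RXRKO and 14599 bp in WT. No peak of any of the 8 libraries touched the hairpin or the 1 kb on either side of it. The domain with Mir132 and Mir212, miRNAs known in mice to affect HSC ageing, covered 12150 bp in RXRKO and 12715 bp in WT. In this domain the hairpins were surrounded by marked chromatin: within 1 kb of Mir132 (chr11:75173682-75173747, plus strand) H3K4me3 covered 1258 bp in RXRKO and 1244 bp in WT. The domain with Mir195a and Mir497 covered 10533 bp in RXRKO and 11595 bp in WT, and that overlapping Vmp1, with Mir21a, 9760 bp in RXRKO and 9680 bp in WT. Mir148b lay in the domain of Nfe2, with 773 bp of H3K27ac within 1 kb of the hairpin in RXRKO and 158 bp in WT.

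For genes, the 250 bases before the start are shown for 2 members whose acetylated length was among the lowest in RXRKO (Rara, Dusp5), for the member with the highest ratio (Zfp326) and for the stem cell factor Tal1. All 4 are on the plus strand of GRCm38.p6, and capitals mark any match to the motifs searched. The windows are chr11:98937446-98937695 for Rara, chr19:53528895-53529144 for Dusp5, chr5:105876318-105876567 for Zfp326 and chr4:115057561-115057810 for Tal1.
Rara: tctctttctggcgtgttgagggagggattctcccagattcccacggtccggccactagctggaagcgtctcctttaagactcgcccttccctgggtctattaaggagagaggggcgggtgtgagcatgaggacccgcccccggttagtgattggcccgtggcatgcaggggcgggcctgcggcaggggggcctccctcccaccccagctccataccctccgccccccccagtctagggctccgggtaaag
Dusp5: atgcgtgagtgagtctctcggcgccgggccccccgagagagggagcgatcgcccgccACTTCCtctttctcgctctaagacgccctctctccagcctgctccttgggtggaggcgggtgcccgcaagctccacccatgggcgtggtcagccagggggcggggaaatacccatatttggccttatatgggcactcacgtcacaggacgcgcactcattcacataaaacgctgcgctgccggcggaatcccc
Zfp326: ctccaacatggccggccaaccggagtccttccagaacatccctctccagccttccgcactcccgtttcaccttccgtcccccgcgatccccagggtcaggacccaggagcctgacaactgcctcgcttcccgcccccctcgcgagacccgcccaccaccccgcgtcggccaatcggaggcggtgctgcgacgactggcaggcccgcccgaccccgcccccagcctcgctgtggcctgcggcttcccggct
Tal1: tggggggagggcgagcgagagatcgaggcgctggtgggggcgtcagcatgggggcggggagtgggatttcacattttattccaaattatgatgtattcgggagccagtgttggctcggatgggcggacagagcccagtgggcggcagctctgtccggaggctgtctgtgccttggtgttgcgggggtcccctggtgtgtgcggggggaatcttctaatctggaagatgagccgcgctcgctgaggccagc
The marks at these starts differed between the genes. Within 1 kb of the start of Rara no H3K27ac was called in RXRKO, against 449 bp in WT, while H3K4me3 covered 1836 bp in RXRKO and 1911 bp in WT. At Dusp5 H3K27ac covered 640 bp in RXRKO and 914 bp in WT, and H3K4me3 1761 bp in RXRKO and 1736 bp in WT. At Tal1 H3K27ac covered 1180 bp in RXRKO and 866 bp in WT, and H3K4me3 filled the window in both genotypes. At Zfp326 the promoter itself differed little, with 1046 bp of H3K27ac in RXRKO and 1090 bp in WT, so the longer acetylation of that domain lay elsewhere in it.

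Motifs were searched on both strands in the RefSeq promoter windows of 250 bases before to 50 after a start, of which 752 had their start inside a member and 21044 were searched in all. The nuclear receptor half-site AGGTCA was in 13.0% of the member promoters and 14.6% of all promoters. The direct repeat of this half-site with 1 base between (AGGTCANAGGTCA, which contains the half-site), the element that RXR pairs can bind, was in 0 member promoters and in 10 of all. The ETS core GGAAGT was in 27% of member promoters and 25% of all, the RUNX core TGTGGT in 13.0% and 14.8%, and the GATA core AGATAA in 6.65% and 9.68%. The MYC E-box CACGTG was in 9.57% of member promoters and 7.91% of all, and the AP-1 site TGANTCA in 5.59% and 7.04%. Among the 4 sequences above the only match was an ETS core in reverse complement at Dusp5. These shares describe letters in promoter windows, and the distal peaks of the domains were not searched.

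Gene starts lay in 250 of the 300 domains (83.3%, against 80.9% of the domains ranked 301 to 1000). The starts were those of 749 protein-coding genes, 3.46% of 21627. A single gene start was found in 98 domains, 5 or more in 48, and 15 in the most crowded. Of the 50 domains with no start, 32 overlapped a gene body and 18 overlapped none. The median distance of the 50 to the nearest start was 49.0 kb. Below, a domain inside a gene is one that held no start and overlapped that gene most. Whether it lay wholly within the gene was not checked. Chromosome 11 held 34 domains, the most of any, and chromosome X held none.

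The largest domain (chr17:5052111-5353316) held no gene start and overlapped only Arid1b, which encodes a subunit of the BAF chromatin remodeller. It covered 24092 bp of H3K27ac in RXRKO and 27738 bp in WT. The second, at Sgms1, which encodes a sphingomyelin synthase, covered 23911 bp in RXRKO and 23170 bp in WT and was the largest of all in the RXRKO list. The domain at rank 6 joined Cd9, a tetraspanin on HSCs and megakaryocytes, to Vwf, the platelet adhesion factor that marks platelet-biased HSCs, and covered 17640 bp in RXRKO and 18631 bp in WT. The domain at rank 7 held Gp1ba, the platelet receptor for VWF, with 18006 bp in RXRKO and 18615 bp in WT. Both domains thus kept nearly their WT length. Others among the 20 largest held Brd2, a reader of acetylated histones (16533 bp in RXRKO, 18167 bp in WT), Ddit4, an inhibitor of mTORC1 (16307 bp in RXRKO, 17437 bp in WT), and Ski, a repressor of TGF-beta signalling (15252 bp in RXRKO, 15345 bp in WT). The member of the 20 largest with the lowest ratio overlapped Irf2 and, to a smaller extent, Enpp6, with 11700 bp in RXRKO and 15444 bp in WT. Irf2 encodes an interferon regulatory factor that restrains interferon signalling in HSCs. Besides that of Sgms1, the domain of Pak2, a kinase of the cytoskeleton, was the only one of the 20 with more in RXRKO, at 18839 bp in RXRKO and 18594 bp in WT.

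Over the whole set, H3K27ac covered 2.88 Mb in RXRKO and 3.23 Mb in WT, or 89.3% of the WT length. Acetylated length was shorter in RXRKO in 261 of the 300 domains, where 79% of all stitched domains and 83.7% of those ranked 301 to 1000 were shorter. It was longer in 39, where 10.7% of all stitched domains and 16.3% of those ranked 301 to 1000 were. Only bases inside the WT edges were counted, so a domain of a single WT peak could not be longer in RXRKO. Of all stitched domains 15795 were such, and the 10.7% is therefore not a like measure. The median domain kept 89.8% of its WT length, with a range of 59.0% to 120%, against 87.6% for ranks 301 to 1000. Every member kept at least some RXRKO H3K27ac, as did all 700 domains ranked 301 to 1000. Of all stitched domains, 15795 of which are single peaks, 4966 (15.7%) had none. RXRKO length was at least 90% of WT in 148 members, between 70% and 90% in 141 and below 70% in 11. On the scale of log2(bp + 1000), 3 members were at least 1.5-fold lower in RXRKO and 0 were higher. Of all stitched domains 6.88% and 0.038% were, and of those ranked 301 to 1000, 3.86% and 0%. The 1000 bp added shrinks the ratios of short domains most. The median WT sum was 1030 bp over all stitched domains, 6379.5 bp for ranks 301 to 1000 and 9832 bp in members. The shares over all stitched domains are therefore not a like measure, and single-peak domains could not be higher.

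Both the scaling and the library in which domains were chosen moved these values. The whole RXRKO list covered 94.6% of the base pairs of the WT list. After scaling to equal list lengths, 206 members were shorter in RXRKO and 94 longer, and 1 was at least 1.5-fold lower. When the 300 domains were instead chosen in the RXRKO list by the same rule, they covered 2.76 Mb in RXRKO and 2.74 Mb in WT, and 157 of them were longer in RXRKO and 143 shorter. When peaks of both genotypes were merged first and domains ranked by the mean of both, 228 of 300 were shorter in RXRKO. Their median was 93.9% of WT. Before scaling, the shorter length in RXRKO therefore held for domains picked as the longest in WT and, to a smaller degree, for those of merged peaks. It did not hold for those picked as the longest in RXRKO.

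**Figure D2:**
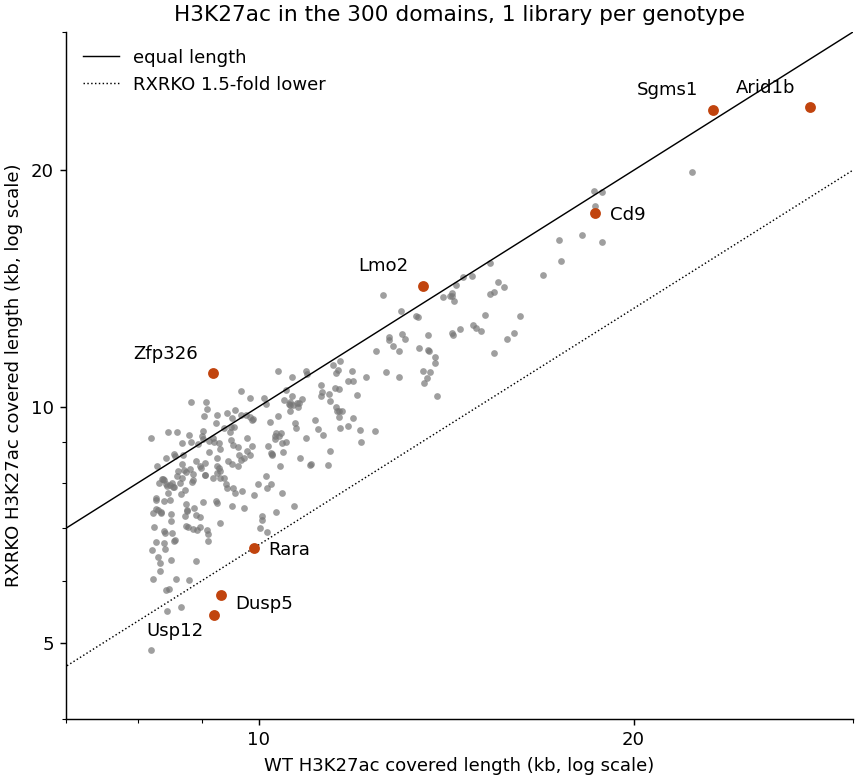
H3K27ac covered length (kb, log axes) in RXRKO against WT for the 300 domains, with equality as a solid line, a 1.5-fold lower raw length as a dotted line and named domains in red. Most points lie just below equality, with Zfp326 highest above it and Usp12 and Dusp5 among the lowest.

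The 10 domains with the lowest ratio kept 59.0% to 70% of their WT length. The lowest held Usp12, a deubiquitinase, the ribosomal protein gene Rpl21 and Rasl11a, with 5427 bp in RXRKO and 9205 bp in WT. Next came a domain inside Ttc28 with 4894 bp in RXRKO and 8187 bp in WT, and that of Dusp5, a phosphatase that switches off ERK, with 5756 bp in RXRKO and 9324 bp in WT. These 3 were the members past 1.5-fold. The domain of the neutrophil granule proteases Prtn3 and Elane (chr10:79874187-79946950) covered 5555 bp in RXRKO and 8659 bp in WT. It also held Cfd, Plppr3 and Med16, and the 1 kb on either side of the start of Elane held no peak in any of the 8 libraries, so the acetylation lay elsewhere in the domain. Rara, the retinoic acid receptor that pairs with RXR, shared a domain (chr11:98900293-98969248) with the replication licensing gene Cdc6, with 6603 bp in RXRKO and 9899 bp in WT. The de novo DNA methyltransferase gene Dnmt3b had 6927 bp in RXRKO and 10141 bp in WT. The others held Ttf2 and Cd101, Irak2 of interleukin receptor signalling, the RNA-binding protein gene Rbpms, and Gm2a, a lysosomal activator of ganglioside breakdown.

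The 10 highest ratios ran from 107% to 120%. The domain of Zfp326, a zinc finger gene, covered 11021 bp in RXRKO and 9182 bp in WT. A domain with Pbx2, a partner of HOX proteins, covered 10129 bp in RXRKO and 8816 bp in WT. One inside Msi2, which encodes an RNA-binding protein that HSCs need for self-renewal, covered 10127 bp in RXRKO and 9072 bp in WT. The domain of Gpr18 and Gpr183, the second of which encodes an oxysterol receptor that guides immune cells, covered 13886 bp in RXRKO and 12577 bp in WT. The hexokinase gene Hk1 and the ETS factor gene Gabpa were in others of these. None of these ratios has a replicate, since H3K27ac was mapped in 1 library per genotype.

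The genes of 17 lists were looked up in the domains, and a gene counted when its start lay in one or its body overlapped one, which held for 3.92% of all 21627 genes (3.46% by start alone). The lists are small and were chosen with results of these data known, so their counts are given as descriptions. Of the 7 transcription factors known as the HSC heptad, 2 were in members. The domain of Lmo2, a bridging protein of this complex, covered 14259 bp in RXRKO and 13549 bp in WT and ranked 3 in the RXRKO list. That of Tal1, its DNA-binding partner, covered 10209 bp in RXRKO and 10836 bp in WT. Of 35 other HSC transcription regulators 5 were in members: Bcl11a, a repressor of fetal globin (7714 bp in RXRKO, 9905 bp in WT), Nfe2 of megakaryocytes (12190 bp in RXRKO, 13109 bp in WT), Nfix, Zfpm1 and Msi2. The median of these 5 was 88.8% of WT, close to the 89.8% of all members.

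Of 27 HSC surface receptors 4 were in members. Besides Cd9 and Vwf these were Cd82, a tetraspanin tied to HSC quiescence (7978 bp in RXRKO, 10224 bp in WT), and Eng, a TGF-beta co-receptor (9397 bp in RXRKO, 10712 bp in WT). The stem cell factor receptor gene Kit had no member at its start, and the nearest lay 119745 bp away (7477 bp in RXRKO, 9509 bp in WT). Of 24 myeloid fate genes 5 were in members. Spi1, the master factor of myeloid cells, lay in a domain of 8065 bp in RXRKO and 8381 bp in WT in which every WT peak was called again in RXRKO. Irf1, an interferon response factor, had 12328 bp in RXRKO and 13676 bp in WT. Of 20 lymphoid fate genes 3 were in members, namely Notch1 (100% of WT), Cd27 (88.5%) and Foxp1 (76.5%). Of 16 erythroid and megakaryocyte genes 3 were, namely Gp1ba (96.7%), the inhibitory platelet receptor gene Mpig6b (92.5%) and the integrin gene Itgb3 (89.4%).

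Of 18 genes of RXR and its partner receptors 3 had a start in a member: Rara (66.7% of WT), Thra, the thyroid hormone receptor gene (80.5%, 11059 bp in RXRKO and 13731 bp in WT), and Rxra itself (94.8%, 8337 bp in RXRKO and 8798 bp in WT). The acetylated domain of Rxra was still called in the RXRKO library, with 10 of its 14 WT peaks called again. Of 32 target genes of RXR pairs 3 were in members, namely Lpcat3, a phospholipid remodelling enzyme and LXR target (92.5%), Srebf1, the LXR target that drives lipid synthesis (83.9%), and Tgm2, a retinoic acid target (82.5%). All 6 of these domains except those of Lpcat3 and Rxra had a lower ratio than the median member.

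None of the 14 genes of the MYC family, 28 genes of quiescence and cell cycle brakes, 11 G1 cyclins and kinases and 14 genes of other tissues was in a member, and at the 3.92% of all genes a list of such size is often empty. The member nearest to Max, the partner of MYC, began 77103 bp from its start and covered 12386 bp in RXRKO and 13020 bp in WT. Of 21 immediate early and AP-1 genes 4 were in members, with a median of 76.1%. They were Dusp5 (61.7%), Ier3 (71.1%), Ier5 (81.2%) and Bach2, a repressor in lymphoid cells (104%). Of 27 chromatin regulators 4 were in members, among them Arid1b (86.9%), Dnmt3b (68.3%) and the nuclear receptor coactivator gene Ncoa3 (94.8%). Of 30 measured signalling and adhesion regulators 8 were, from Arhgef3 (76.8%) to Socs3, a brake on cytokine signalling (107%), with Ski (99.4%), Elmo1 (97.6%) and Smad3 of the TGF-beta pathway (91.6%) between them. Housekeeping genes had 4 of 18 in members, from Tubb5 (71.1%, in the domain of Ier3) to Actb (104%), and of 10 stromal and endothelial genes only the body of Pecam1 overlapped one (80.1%). Among all 300 members the log2 ratios had a 10th percentile of -0.35 and a 90th percentile of 0.02.

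The shorter length came with peaks that were not called again and with peaks covered only in part. RXRKO H3K27ac covered 75.0% of the base pairs of the WT peaks in members, and further bases of the domains outside those peaks. In the Zfp326 domain, for example, a WT peak of 461 bp was covered over 193 bp in RXRKO. Of the 4805 WT peaks in members, 3738 (77.8%) overlapped an RXRKO peak, against 73.3% of all WT H3K27ac peaks. Peaks called again had a median authors' fold over background of 3.76 and 679 bp, and the 1067 not called again had 2.79 and 324 bp. Of the member peaks with a fold under 3, 59.0% were called again, of those from 3 to under 5, 83.0%, and of those of at least 5, 99.2%. All WT H3K27ac peaks showed the same order, with 49.4%, 71.1% and 97.1%. Peaks more than 2.5 kb from a start were called again in 75.7% of cases and those nearer in 85.6%, against 69.9% and 84.5% of all WT peaks. In 14 members every WT peak was called again, while the Arid1b domain had the most without an RXRKO peak, 18 of 54. In the other direction, 289 of the 4014 RXRKO peaks in members (7.20%) overlapped no WT peak, in 167 members. The same share over all RXRKO H3K27ac peaks was not counted, so 7.20% cannot be read as particular to the members. The strongest of these by -log10 q lay in the domain near Kdr (chr5:75859421-75860024, authors' fold 4.52), and the strongest WT peak not called in RXRKO lay in that of S1pr1, a receptor that guides cell egress (chr3:115692251-115692689, authors' fold 3.88). Both peaks, named after their values were seen, carried H3K4me1 in all 4 libraries.

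**Figure D3:**
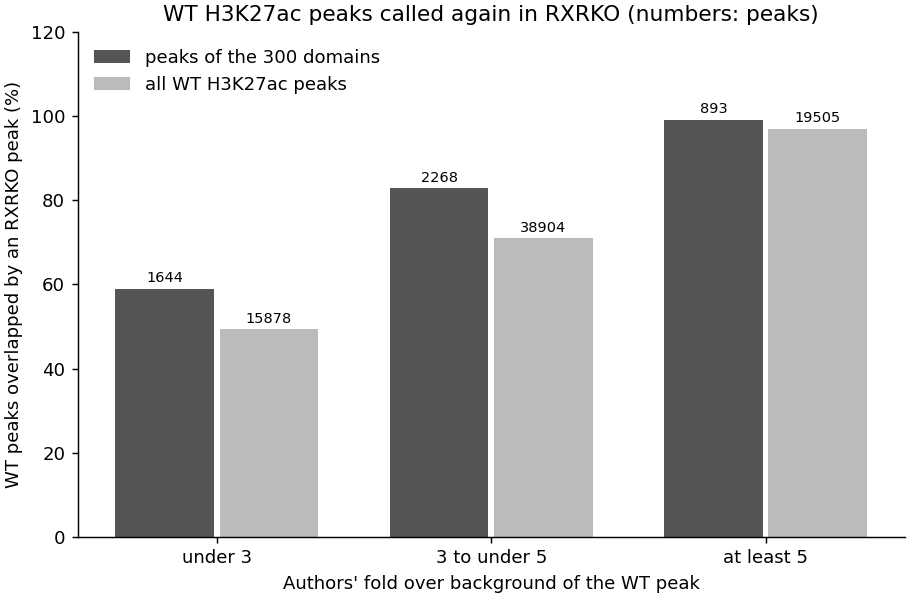
Share of WT H3K27ac peaks (%) overlapped by an RXRKO H3K27ac peak, by the authors' fold of the WT peak, for the 4805 peaks of the 300 domains (dark) and for all WT peaks (light), with the number of peaks above each bar. The share in the domains is 59.0%, 83.0% and 99.2% from the lowest to the highest fold class.

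The enhancer mark was present on most of the peaks that lost the call. H3K4me1 peaks of all 4 libraries overlapped 94.5% of the WT peaks called again in RXRKO and 81.2% of those not called again. WT H3K4me3 overlapped 75.3% and 33.0%. In the Dusp5 domain 8 of 17 WT peaks were not called in RXRKO. Their folds were 2.24 to 4.35, and 7 of the 8 carried H3K4me1 in all 4 libraries. In the Rara domain 6 of 13 were not called, with folds of 2.27 to 3.10, and 1 of them (chr11:98937307-98937755) lay across the gene's start shown above. In the Lmo2 domain 20 of 21 peaks were called again, and in the Zfp326 domain all 13 were.

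**Figure D4:**
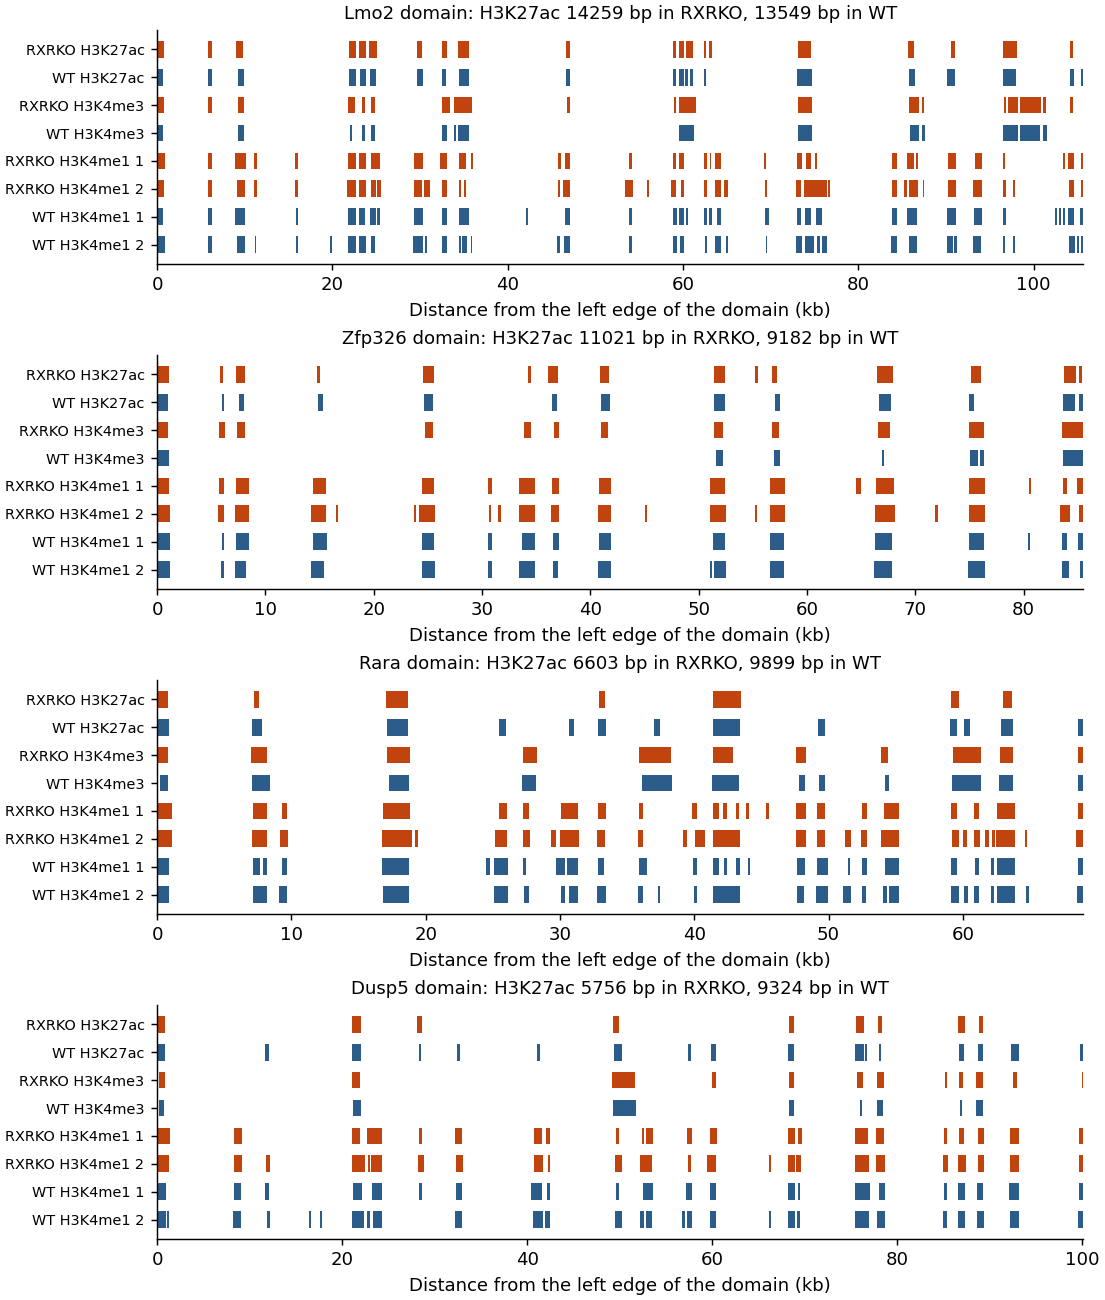
Peaks of all 8 libraries in the Lmo2, Zfp326, Rara and Dusp5 domains by distance from the domain's left edge (kb), RXRKO in red and WT in blue, each bar being 1 called peak. The Lmo2 and Zfp326 domains show nearly the same acetylated sites in both genotypes, while the Rara and Dusp5 domains have WT H3K27ac bars with none above them in RXRKO mostly with H3K4me1 bars below.

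The ranking itself differed in part. Of the 300 domains of WT, 191 (63.7%) overlapped 1 of the 300 largest of RXRKO, and 194 of the RXRKO 300 (64.7%) overlapped 1 of WT. The overlap was 75 among the first 100 WT domains, 62 among the next 100 and 54 among the last 100. All but 29 (271 of 300) overlapped an RXRKO domain ranked within the first 1000. The farthest drop was that of Ccdc69 and Gm2a, with a best RXRKO rank of 4485, against rank 106 in WT. An RXRKO domain is broken where a linking peak is not called, and its rank is then that of the largest piece. The Rara domain was at rank 3314 in the RXRKO order, against 145 in WT, and the Dusp5 domain at 3121, against 181 in WT.

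H3K4me1 was mapped in replicate, and the rule did not use it. It covered 20.0% and 23.1% of the span of the 300 domains in the RXRKO libraries and 20.2% and 21.3% in the WT libraries, and every member had H3K4me1 in every library. These shares were close to those of the domains ranked 301 to 1000, which were 20.1% and 23.0% in RXRKO and 20.4% and 21.3% in WT. With limma over 24320 stitched domains, 0 of the 300 members were called higher in RXRKO and 0 lower at an adjusted p of 0.05, where 0.0946% and 0.169% of all tested domains were. At an unadjusted p of 0.05, 6 members were higher and 0 lower, where 2.9% and 2.23% of all were. With the replicate number as a block, 20 members were higher and 2 lower at that p, beside 1382 and 1085 of all 24320 domains. The members' differences were small, from -0.14 to 0.20 on the log2 scale with a median of 0.04 and a median SE of 0.08, against a median of -0.01 over all tested domains. The smallest adjusted p of a member was 0.724 (limma, n = 2 libraries per genotype), and 0.0628 with the replicate number as a block in the fit.

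Replicates 1 and 2 did not show the same shift. Within replicate 1 the median member differed by -0.0023 and 141 were above 0, and within replicate 2 by 0.075 with 260 above 0. In both replicates 125 members were higher and 24 lower, so 49.7% had the same sign in both, against 39.9% of all tested domains. Both RXRKO libraries exceeded both WT libraries in 66 members and lay below both in 10, where 12.3% and 9.44% of all tested domains did. Without RXRKO replicate 1 the members' median difference was 0.094, and without RXRKO replicate 2 it turned to -0.01. The sign of the small shift therefore rested on RXRKO replicate 2, the library with the longest H3K4me1 list.

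Without the block the member with the smallest p lay near Haao. It had 12361 and 14730 bp in RXRKO against 11393 and 11732 bp in WT. Its log2 difference was 0.20 (SE 0.08, limma adjusted p 0.724, and 0.0918 with the block), and the RXRKO values lay above both WT values. The Zfp326 domain, highest for H3K27ac, had 16079 and 18395 bp in RXRKO against 14851 and 15375 bp in WT. Its log2 difference was 0.17 (SE 0.08, limma adjusted p 0.886, and 0.153 with the block). The domains of Sesn2, a stress-induced inhibitor of mTORC1 (0.17), of Gsk3a and Dedd2 (0.20) and of Pcbp1 (0.17) were the other 3 with the smallest p above 0. The 5 below 0 were those of the histone genes H2ac6, H2bc4 and H1f6 (-0.13), of Bcl3, an NF-kB cofactor (-0.14), of Ttf2 and Cd101 (-0.11), of Myo5c (-0.12) and of 2900026A02Rik (-0.09). None of these 10 passed the test, with or without the block. The Rara domain had 15050 and 20023 bp in RXRKO against 15413 and 17264 bp in WT, and the Dusp5 domain 16123 and 18808 bp in RXRKO against 15879 and 18179 bp in WT, so in both the RXRKO and WT values overlapped.

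**Figure D5:**
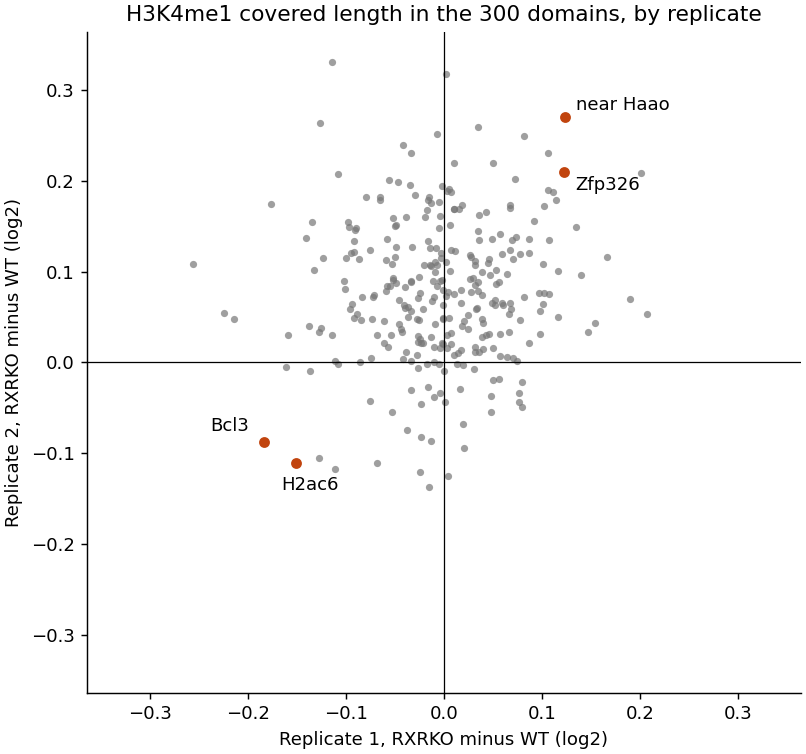
Difference in H3K4me1 covered length, RXRKO minus WT (log2 of bp + 1000, centred), in replicate 2 against replicate 1 for the 300 domains, with 4 named domains in red. The points centre near 0 in replicate 1 and near 0.075 in replicate 2.

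H3K4me3 went the other way from H3K27ac before scaling. It covered 13.2% of the members' span in RXRKO and 11.5% in WT, with more base pairs in RXRKO in 278 of 300 members and fewer in 22, where 52.1% and 13.9% of all stitched domains and 88.4% and 11.4% of those ranked 301 to 1000 were. The members' total was 115% of WT, while the whole RXRKO list was 118% of the WT list. In members with no start of a protein-coding gene H3K4me3 covered 10.4% of the span in RXRKO and 8.33% in WT. These include the domain inside Zfp608, 352 bp from that gene's start, with 11766 bp in RXRKO and 12843 bp in WT. Starts of noncoding genes were not looked up, so the share lying away from any promoter is not known. After scaling to equal list lengths, a shift of -0.24 on the log2 scale, 115 members were higher and 185 lower, so the direction turned with the scaling. At least 1.5-fold more was found in 8 members and at least 1.5-fold less in 0, where 4.67% and 0.155% of all stitched domains and 5% and 0.286% of those ranked 301 to 1000 were. Here too the 1000 bp added shrinks the ratios of short domains most. With 1 library per genotype the H3K4me3 comparison has no test.

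The highest H3K4me3 ratio was that of the Zfp326 domain, with 10944 bp in RXRKO and 5427 bp in WT. In the domain inside Usp6nl, a regulator of vesicle traffic, H3K4me3 covered 5997 bp in RXRKO and 2943 bp in WT, and in that inside Cux1, a homeobox gene, 8514 bp in RXRKO and 4447 bp in WT. The domain inside Susd1 had 6865 bp in RXRKO and 3761 bp in WT, and that near Sik1 5528 bp in RXRKO and 3053 bp in WT. Apart from that of Zfp326, these domains held no gene start. Of these 5, Zfp326 and Usp6nl were also among the 10 highest for H3K27ac, whereas Susd1 and Sik1 had 74.1% and 73.3% of the WT H3K27ac length. The 5 lowest for H3K4me3 were the domains of Hpn, of Runx3, of Eng, of Hspa4 and one inside Zfp608, each with less in RXRKO. Runx3, a RUNX family factor, had 9244 bp in RXRKO and 10052 bp in WT, and Eng 10829 bp in RXRKO and 11488 bp in WT. In the Rara domain, among the lowest for H3K27ac, H3K4me3 covered 13438 bp in RXRKO and 13552 bp in WT, and in the Dnmt3b domain 9475 bp in RXRKO and 8665 bp in WT.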

How the data were processed

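Each of the 8 libraries has a peak list. The submitters' processing notes name cutadapt 1.7.1, Bowtie2 2.2.5, MACS3 and mm10; how peaks were controlled or scaled is not given in these sources. Each deposited peak has the authors' fold over background, a ratio, and the -log10 q-value of the authors' peak caller. These described or ranked peaks within 1 list only. The members and gene lists were chosen with earlier results of these data known.

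A domain's value was the base pairs of it covered by peaks, so RXRKO peaks outside its edges were not counted. H3K4me1 was tested with limma 3.58.1 (R 4.3.3; lmFit, eBayes with trend) on log2(bp + 1000), centred on each library's median, over domains with a mean of at least 500 bp, with Benjamini-Hochberg adjustment. Tested on simulated data, a log2 change of 1 was recovered in 200 of 200 domains among 24320, with 9 false calls. That change is larger than any member difference, and the simulation gave every domain the same spread with no shift between replicates. It therefore cannot show whether differences as small as those of the members would be found. For H3K27ac and H3K4me3 (1 library per genotype) ratios are of bp + 1000, counted past 1.5-fold, and percentages of WT are of bp. A peak overlap needed 1 bp. Run tags within the deposited names place replicate 1 of H3K4me1 in both genotypes in 1 run and the other 6 libraries in another, so the replicate number marks a run holding both genotypes. The difference between replicates correlated between genotypes with r = 0.42 across domains, which are not independent.

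Gene starts came from RefSeq promoter windows (GRCm38.p6) for 17273 genes, otherwise from the gene end with more H3K4me3 within 2 kb (3115 genes) or both ends (1239). Domains were named by gene starts they hold, then by the gene overlapped most, then by the nearest start. Named were the 20 largest, the 3 on either side of the border, the 10 lowest and 10 highest H3K27ac ratios, the 5 smallest H3K4me1 p in each direction, the 5 lowest and highest H3K4me3 ratios and genes of the lists. A genome sequence was not used here, so motifs planned for peak summits were counted in promoter windows. Alternatives changed peak cut-offs, the stitching gap, the number of domains, promoter peaks, scaling, the bp added and, for H3K4me1, the block, the centring, the filter and each library. A share counted as moved when it left the 95% Wilson interval of the main value.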

Additional observations from a re-analysis of the deposited data

How the results depend on the processing

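Replicate block: with the run as a block, 0 members were called for H3K4me1, as without it, and the members' median log2 difference was 0.04. Over all tested domains the block raised the calls to 375 higher and 400 lower, against 23 and 41 without it. Leaving out each H3K4me1 library in turn gave 0 to 6 member calls and medians of -0.0136 to 0.0941; the 6 calls came without RXRKO replicate 1. With peaks of fold at least 4, 3 of 297 members were called, all lower, where 3 of 18251 tested domains were called higher and 81 lower. The 3 members were domains at Myo18a, Tg with Sla, and Gch1 (named after their values were seen), and the members' median was -0.10. Scaling by list length gave a median of -0.0224. The other settings that kept every library gave 0 member calls. Of the 10 named H3K4me1 domains, 2900026A02Rik ranged from -0.186 to 0.0076 when 1 library was left out, reversing without WT replicate 2. The difference at the domain of Dedd2 was 0.34 without RXRKO replicate 1.

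The share of members shorter for H3K27ac in RXRKO (87.0%) was 78.3% with equal numbers of peaks, 93.7% with a 25 kb gap, 92.0% for 100 domains, 80.3% without peaks near gene starts, 76.0% for domains of merged peaks and 68.7% after scaling by list length. The count at least 1.5-fold lower (3) was 12 with -log10 q of at least 5, 60 with fold of at least 4, 9 with a 5 kb gap, 0 with 25 kb, 7 without peaks near starts, 0 for merged peaks, 5 with 200 bp added and 1 after scaling. The share of WT peaks called again (77.8%) was 75.9% and 75.4% under the q and fold cut-offs, 81.5% with equal numbers of peaks, 80.1% and 74.7% with 5 and 25 kb gaps and 76.2% without peaks near starts. The overlap of both sets of 300 (63.7%) was 57.7% and 45.7% under the q and fold cut-offs, 49.3% with a 5 kb gap, 56.0% for 100 domains and 70% for 1000. The share higher for H3K4me3 (92.7%) was 74.7% with equal numbers of peaks and 38.3% after scaling, and the count at least 1.5-fold higher (8) was 17 with 200 bp added, 3 after scaling and 2 with equal numbers of peaks. The cause of these moves was not tested. Unknown depth limits every H3K27ac and H3K4me3 value, and 2 libraries per genotype limit H3K4me1.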
